A study of Homo sapiens with 24 samples.

Results

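Axon guidance ligands and receptors were examined in human pluripotent stem cell (hPSC)-derived sensory neuron cultures. The set holds the genes for the semaphorins of classes 3 to 7, plexins, neuropilins, ephrins, Eph receptors, slits, robos, netrins and netrin-G proteins, UNC5 receptors, DCC and NEO1. Members were chosen by gene symbol, with the first row of each symbol and a total of at least 10 counts over all libraries. All 72 symbols that matched passed this minimum, with totals of 277 to 308860 counts, and they are 72 of 27622 genes tested. The wild-type H9WAO9 line of human embryonic stem cells had been differentiated through vagal neural crest to sensory neurons, matured and then treated. Vehicle cultures received PBS with 0.1% bovine serum albumin. The TGF-β cultures received TGF-β at 2 ng/ml for 5 days, and the IL-4 + IL-13 cultures IL-4 at 10 ng/ml with IL-13 at 3 ng/ml for 5 days, in the same solution. The remaining group is labelled IL-6, and its dose and duration are not given in the sources used here. Each of 6 batches of differentiation gave 1 polyA RNA library per treatment, 24 libraries in all, so that n = 6 in every group.

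Guidance cues steer growing axons by attraction or repulsion at the growth cone. Class 3 semaphorins are secreted and act through neuropilins, which bind the cue, and plexins, which carry the signal into the cell. Ephrins are held at the cell surface, where they bind Eph receptor tyrosine kinases on a neighbouring cell and can signal in both directions. Netrins act through DCC, NEO1 and UNC5 receptors, and slits through robos. In sensory ganglia, SEMA3A is best known as a repellent of NRP1-bearing axons. These families also act outside neurons, in vessels, mesenchyme and neural crest.

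Whole cultures of 1 cell line were sequenced, and the libraries held 33342682 to 39817784 counts (median 35775126). Members took up 0.464% to 0.636% of the counts of a library. All 16 neuronal markers examined were detected, and their summed level ran from 2292 to 13296 CPM in vehicle cultures. The summed level of 10 fibroblast and mesenchyme markers ran from 3762 to 13002 CPM there, so these are levels of a mixed culture. In such bulk libraries, fewer cells of a type and less RNA per cell cannot be told apart. Across 11839 well-expressed genes, with treatment means removed, 19 of 24 libraries correlated best with their own batch. The vehicle library labelled batch 2 correlated at a mean of -0.05 with the treated libraries of its own batch and of 0.664 with those of batch 4. The vehicle library labelled batch 4 correlated at a mean of 0.519 with the treated libraries of batch 2 and of 0.200 with those of batch 4. Both were kept under their labels, and some results are also given without them. Fitted changes against vehicle with all libraries rest in part on both of these pairs.

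Levels are counts scaled to library size (CPM), and levels are compared between genes only after division by exon length (CPM per kb). In vehicle cultures the cues and receptors were nearly all detected, though a member needed 10 counts to enter the set. The lowest floor used here, 0.1 CPM per kb, was passed by SEMA3G with 7 to 51 counts per vehicle library. The median level was at least 0.1 CPM per kb for 71 of 72 members, at least 1 for 65, at least 5 for 45 and at least 10 for 19. The highest member was SEMA3C, a secreted class 3 semaphorin, at 43.8 to 87.6 CPM per kb (median 64.04). EFNB3 and EFNB2, both transmembrane ephrins, had 29.1 to 133 CPM per kb (median 43.2) and 19.3 to 63.5 CPM per kb (median 30.5), in the same order. All 3 ephrin-B genes lay high, with medians of 17.8 to 43.2 CPM per kb. The ephrin-A genes, whose products are held by a lipid anchor, had medians of 4.15 to 12.3, and EFNA3 was the highest of them at 6.46 to 13.4 CPM per kb (median 12.3). SLIT2 led the slits at 14.2 to 30.1 CPM per kb (median 18.1). Among class 4 to 7 semaphorins, most of which stay in the membrane, SEMA6D was highest at 3.59 to 15.8 CPM per kb (median 13.1). Netrins and netrin-G genes had the lowest family median, with members from 0.175 to 5.23 CPM per kb and NTNG1, a membrane-anchored netrin relative, the highest of them.

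Among the receptors, PLXNB2, a plexin for class 4 semaphorins, had 31.2 to 83.2 CPM per kb (median 35.8) and NEO1, a receptor related to DCC, had 22.5 to 32.1 CPM per kb (median 26.4). NRP2 and NRP1, the neuropilins, had 13.2 to 42.8 CPM per kb (median 15.97) and 8.78 to 19.9 CPM per kb (median 13.8), in the same order, and their ranges overlapped. EPHA2 led the EphA genes at 8.51 to 29.98 CPM per kb (median 11.8), EPHB2 the EphB genes at 6.21 to 10.8 CPM per kb (median 9.98) and ROBO1 the robos at 5.58 to 9.91 CPM per kb (median 8.15). The ranges of neighbours in the order of medians overlapped at the top: SEMA3C and EFNB3 did not separate over the 6 libraries, nor did EFNB3, PLXNB2 and EFNB2. SEMA3A lay lower, at 3.90 to 4.17 CPM per kb (median 4.08), and its 6 libraries stood close together. At the bottom were the endothelial robo ROBO4 at a median of 0.0345 CPM per kb, SEMA3G at 0.110, EPHA1 at 0.122 and NTN3 at 0.175. EPHA1 has a further row whose counts are not in this level. ROBO4, SEMA3G and NTN3 were named for their low levels after these had been seen.

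**Figure D1:**
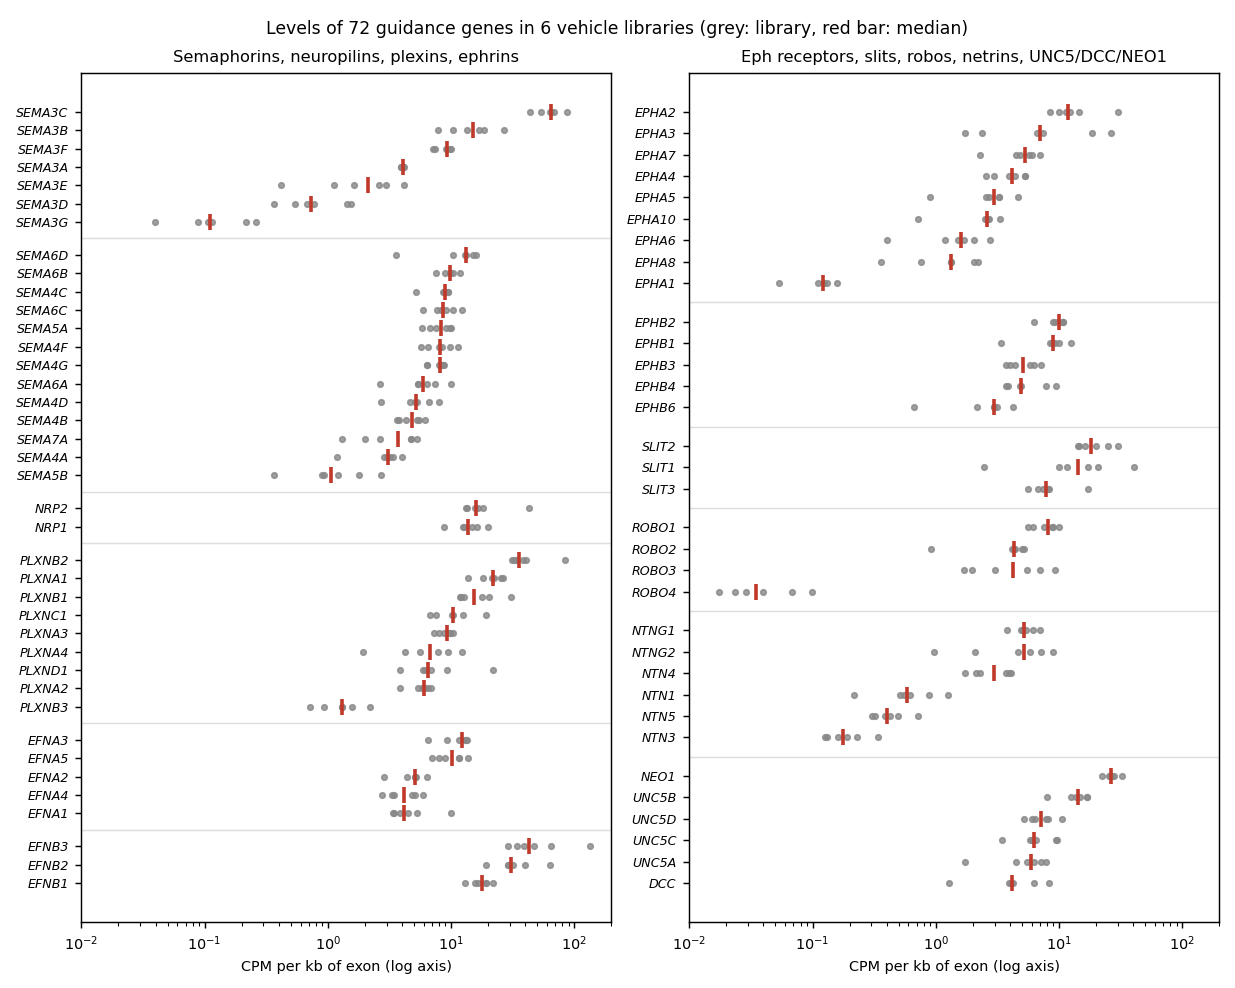
Level of each of the 72 members in the 6 vehicle libraries in CPM per kb of exon, on a log axis, with 1 point per library and a mark at the median, grouped by family. Ephrin-B genes sit at the upper end with medians of 17.8 to 43.2 CPM per kb, and netrins and netrin-G genes at the lower end with medians of 0.175 to 5.23 CPM per kb.

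The first question was whether any treatment altered the members. Over all 4 groups, edgeR's quasi-likelihood F test with batch in the model and Benjamini-Hochberg adjustment over all genes called 3 of 72 members at an adjusted p under 0.05: EPHB2 (adjusted p = 0.00245), EFNA1 (0.0102) and PLXND1 (0.0120). EPHB2 encodes a receptor for B-type ephrins, EFNA1 a lipid-anchored ephrin, and PLXND1 a semaphorin receptor known from vessels and axons. Of all genes tested, 1.91% were called in the same way. At an unadjusted p under 0.05 there were 11 members, and 9.72% of all genes. The next member was SLIT3, with an adjusted p of 0.315. No fitted log2 fold change of a member lay beyond 1 in either direction in any of the 4 contrasts, where 0.159%, 0.398%, 0.0% and 1.26% of all genes were called at such a size (in the order TGF-β, IL-4 + IL-13, then IL-6 against vehicle, then TGF-β against IL-4 + IL-13). Their 95% intervals lay within ±1 for 67 of 72 members in TGF-β against vehicle, 63 in IL-4 + IL-13 against vehicle, 62 in IL-6 against vehicle and 64 in TGF-β against IL-4 + IL-13. Without the vehicle libraries of batches 2 and 4, 8 members were called over the 4 groups (4.04% of all genes), adding EFNA5, NRP1, PLXNA4, SEMA3D and UNC5D. Without the vehicle library of batch 2 alone 5 were called (3.24%). Leaving out a whole batch gave 0 to 4 members, with 1 without batch 3 or batch 5 and 0 without batch 6. No share of all genes is given for these fits, so their counts are not to be read against all genes. The 3 contrasts with vehicle share their vehicle libraries and are not independent.

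TGF-β against vehicle called no member, against 0.391% of all genes. At an unadjusted p under 0.05, 5 members lay higher and 3 lower (7.33% of all genes passed that threshold in either direction). DESeq2 called 1 member, EPHB2, with no share of all genes given here. The median log2 fold change was -0.03 over the members and -0.01 over all genes, with 33 members above 0 and 39 below. EPHB2 had the lowest p, with 77.8 to 135 CPM (median 125) in vehicle and 101 to 171 CPM (median 144) in TGF-β cultures. Its groups overlapped, but within batches it was higher in 6 of 6 pairs, with a log2 fold change of 0.28 ± 0.07 (SE; adjusted p = 0.135). UNC5B, a netrin receptor that mediates repulsion, and PLXNA1, a signalling partner of neuropilins, also lay higher in 6 of 6 pairs, where 4.32% of all genes moved in 1 direction in all batches. UNC5B had a log2 fold change of 0.39 ± 0.18 (adjusted p = 0.644). EPHA7, an ephrin-A receptor, had 0.32 ± 0.11, and ROBO1, a slit receptor, had 0.18 ± 0.06. PLXND1 had 0.30 ± 0.14, with 5 of 6 pairs higher.

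Cues with low p under TGF-β lay mostly below vehicle. SEMA3B, a secreted class 3 semaphorin, had 45.2 to 154 CPM (median 87.2) in vehicle and 33.1 to 109.7 CPM (median 56.7) in TGF-β cultures, a log2 fold change of -0.48 ± 0.15 (adjusted p = 0.280) with 5 of 6 pairs lower. The membrane semaphorins SEMA5A and SEMA4A had -0.27 ± 0.11 and -0.34 ± 0.14, the secreted SEMA3F had -0.13 ± 0.07 and the ephrin EFNA5 had -0.31 ± 0.15. By family, 6 of 7 class 3 semaphorins, 3 of 3 ephrin-B genes and 3 of 3 slits had fitted changes below 0, while 5 of 5 EphB genes and 4 of 5 ephrin-A genes lay above 0. None of these single members passed the test, and no share of all genes below 0 is given beside these counts. SEMA3B, SEMA3F, SEMA5A, SEMA6A, EPHA1, EPHA2, EPHA5, SLIT1, SLIT3, PLXNB3, UNC5B and UNC5C have an annotated antisense gene in their span, and with the strand of the reads not stated their counts may hold reads of it.

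**Figure D2:**
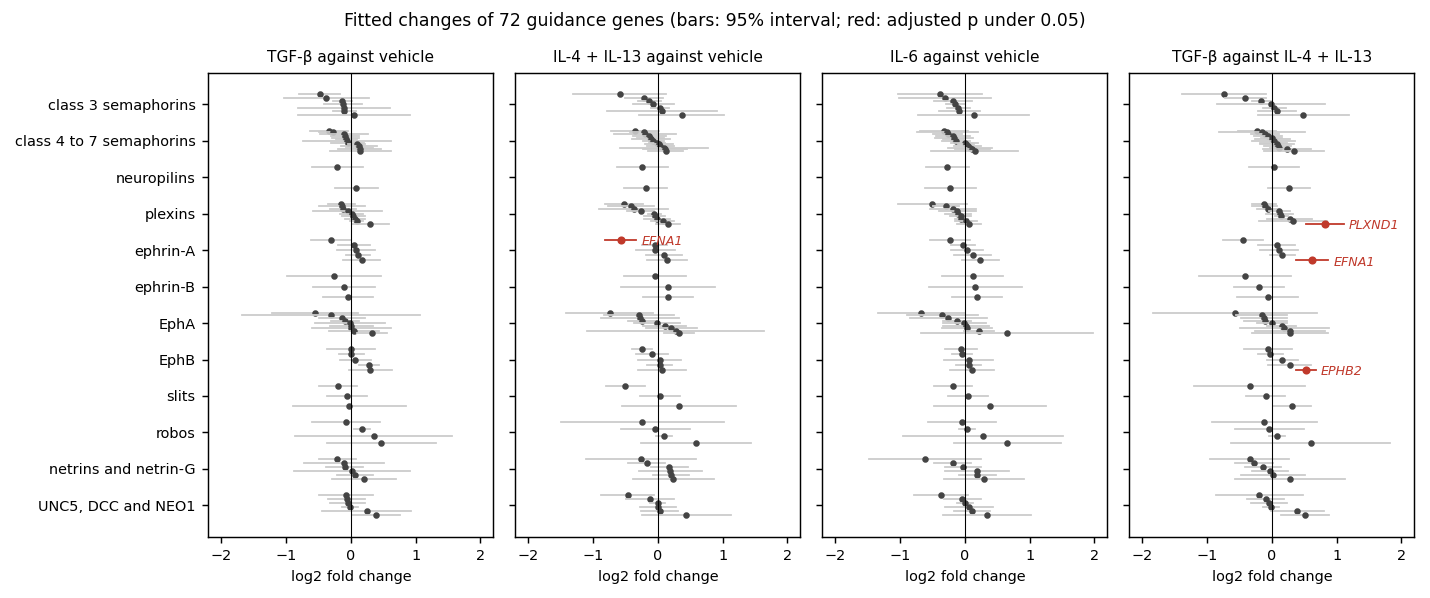
Fitted log2 fold change of each member in the 4 contrasts, 1 point per gene with its 95% interval as a bar, grouped by family, from edgeR's model with batch. All points lie within ±1, and those past an adjusted p of 0.05 are EFNA1 for IL-4 + IL-13 against vehicle and EPHB2, PLXND1 and EFNA1 for TGF-β against IL-4 + IL-13.

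IL-4 + IL-13 against vehicle called 1 of 72 members, EFNA1, which fell, against 0.684% of all genes. At an unadjusted p under 0.05, 9 members lay lower and 1 higher, 13.9% of members beside 9.19% of all genes. The median log2 fold change was -0.03 over the members and -0.00 over all genes. EFNA1 had 7.27 to 21.5 CPM (median 8.98) in vehicle and 4.76 to 9.46 CPM (median 6.96) in IL-4 + IL-13 cultures. The ranges overlapped, and the highest vehicle library was that of batch 1. Its log2 fold change was -0.58 ± 0.12 (SE; 95% interval -0.82 to -0.33; adjusted p = 0.0205). It was lower in 5 of 6 pairs, and the pair of batch 4 differed by 0.04. Without the vehicle libraries of batches 2 and 4 it was again the 1 member called (0.814% of all genes), with a log2 fold change of -0.64 ± 0.13 (adjusted p = 0.0145). The call did not hold when a batch was left out for batch 1 (adjusted p = 0.0879), batch 3 (0.124), batch 5 (0.146) or batch 6 (0.209), so that 0 members were then called, while the log2 fold change stayed between -0.71 and -0.47 over all the alternatives run.

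Markers of several other cell types also lay mostly lower in this contrast. The fitted change was below 0 for 10 of 10 fibroblast and mesenchyme markers, 0 of them called, and their summed level was lower than in vehicle in 5 of 6 pairs, by a median log2 ratio of -0.27. All 5 epithelial markers lay lower and 1 was called, CDH1, at -1.88 ± 0.34 (adjusted p = 0.00909). Above vehicle lay 2 of 9 glial and 1 of 5 smooth muscle markers, with median log2 fold changes of -0.26 and -0.19. Of the neuronal markers 8 of 16 did, and of the endothelial markers 3 of 5. In the other contrasts with vehicle, 0 of 5 epithelial markers lay above it under TGF-β and under IL-6. Of the fibroblast and mesenchyme markers 4 of 10 did under TGF-β and 2 of 10 under IL-6. The part of these markers in the fall of EFNA1 was not tested.

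Other members, receptors and a cue, also had a low p after IL-4 + IL-13. PLXND1 had 36.8 to 208 CPM (median 62.2) in vehicle and 27.01 to 84.1 CPM (median 54.5) after IL-4 + IL-13, a log2 fold change of -0.52 ± 0.14 (adjusted p = 0.110) with 5 of 6 pairs lower. The cue SLIT3 had 79.9 to 247 CPM (median 111) and 56.2 to 126 CPM (median 87.1) in the same groups, a log2 fold change of -0.50 ± 0.14 (adjusted p = 0.160). DESeq2 called both, along with EFNA1, as did edgeR without batch 4 or without its vehicle library alone. Without batch 2, EFNA1 and EPHB2 were called. For these alternatives the share of all genes is not given here. EPHB2 had a log2 fold change of -0.24 ± 0.07 (adjusted p = 0.220). PLXNA2 and PLXNB3, receptors for semaphorins, had -0.26 ± 0.10 and -0.41 ± 0.17, and UNC5D, a netrin receptor, had -0.47 ± 0.20. In batch 2, UNC5D had 3108 counts in vehicle and 1114 after IL-4 + IL-13, the widest gap of its pairs. The Eph receptors EPHA1, which is scarce here, and EPHA2 had -0.74 ± 0.32 and -0.24 ± 0.11. EPHA1 was the single member lower in 6 of 6 pairs (4.26% of all genes moved in 1 direction in all batches). EPHA7 lay above vehicle, at 0.32 ± 0.11. By family, 7 of 9 plexins and both neuropilins had fitted changes below 0, and 4 of 6 netrins and netrin-G genes above 0.

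IL-6 against vehicle called no member, and 0.0% of all genes. At an unadjusted p under 0.05, 5 members lay lower and 0 higher (4.7% of all genes passed that threshold), and DESeq2 called 0 members. PLXNA2 had -0.29 ± 0.10 and SEMA5A -0.27 ± 0.10 (log2 fold change, SE), each lower in 6 of 6 pairs, a pattern shown by 2.37% of all genes in either direction. EPHA1 had -0.67 ± 0.32, SEMA4G -0.17 ± 0.08 and SEMA3F -0.15 ± 0.07. PLXNA4, SEMA4D and UNC5D had -0.50 ± 0.25, -0.32 ± 0.18 and -0.36 ± 0.20, and EFNA2 and EPHA7 had 0.24 ± 0.14 and 0.22 ± 0.11. The adjusted p of each of these members was 0.850 in edgeR's test. In batch 2, PLXNA4 had 5654 counts in vehicle and 1047 under IL-6, SEMA4D 3394 and 1110, and UNC5D 3108 and 930. The pairs of the other batches lay closer together for each of them. That vehicle library is 1 of the pair whose batch labels the correlations go against. No fold change without it is given here for this contrast. Of the 3 genes taken as markers of an IL-6 response, SOCS3, BCL3 and JUNB, 0 were called in this contrast.

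The direct comparison of TGF-β with IL-4 + IL-13 called 3 of 72 members, all higher under TGF-β, against 3.15% of all genes. EPHB2 had 101 to 171 CPM (median 144) under TGF-β and 64.8 to 135 CPM (median 109.7) under IL-4 + IL-13. The groups overlapped, but TGF-β was the higher in 6 of 6 pairs, with a log2 difference of 0.52 ± 0.07 (SE; 95% interval 0.37 to 0.68; adjusted p = 0.000270). PLXND1 had 50.5 to 223 CPM (median 93.3) and 27.01 to 84.1 CPM (median 54.5) in the same order. Its log2 difference was 0.82 ± 0.14 (95% interval 0.53 to 1.11; adjusted p = 0.00150), with TGF-β higher in 6 of 6 pairs. EFNA1 had 6.71 to 23.3 CPM (median 9.56) under TGF-β and 4.76 to 9.46 CPM (median 6.96) under IL-4 + IL-13, a log2 difference of 0.62 ± 0.12 (95% interval 0.38 to 0.87; adjusted p = 0.00373) with TGF-β higher in 6 of 6 pairs. Set beside vehicle, EFNA1 had a log2 fold change of 0.05 ± 0.12 under TGF-β, and the fitted values of PLXND1 and EPHB2 lay above vehicle under TGF-β and below it under IL-4 + IL-13, none of them called. EFNA1 was not called without batch 6 (adjusted p = 0.0613). EPHB2 and PLXND1 were called in 16 of 17 alternatives at this threshold, the exception being the model without batch, and neither reached the log2 difference of 1 that a stricter call asks for.

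**Figure D3:**
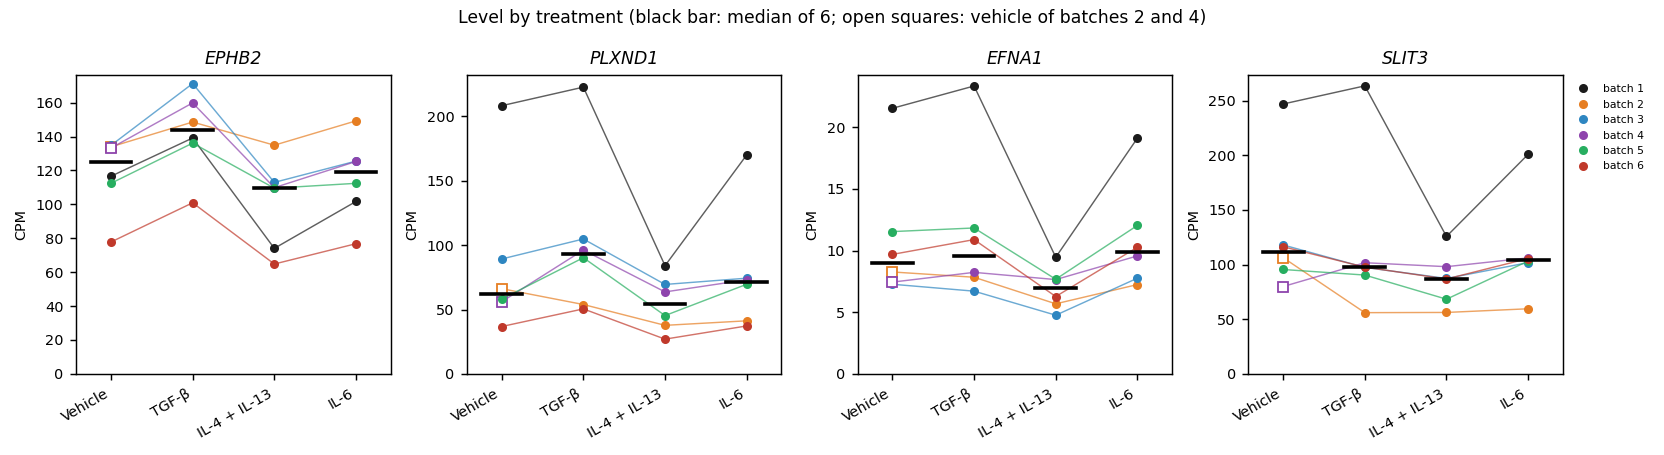
CPM of EPHB2, PLXND1, EFNA1 and SLIT3 in all 24 libraries by treatment, 1 point per library with lines joining the libraries of a batch and a bar at the median of each group (open squares: vehicle libraries of batches 2 and 4). TGF-β lies above IL-4 + IL-13 in 6 of 6 batches for EPHB2, PLXND1 and EFNA1, and batch 1 gives the highest PLXND1 library of every group, at 84.1 to 223 CPM.

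EPHB2 lies on chromosome 1 of GRCh38.p14 (22710839 to 22921500, plus strand), EFNA1 on chromosome 1 (155127876 to 155134899, plus strand) and PLXND1 on chromosome 3 (129555214 to 129606676, minus strand), by GENCODE release 44. The 250 bases upstream of each RefSeq start of transcription are given because these 3 members passed the test of TGF-β, which signals through SMAD proteins, against IL-4 + IL-13, which signal through STAT6. The sequences are from RefSeq on GRCh38.p14, written 5′ to 3′ on the strand of the gene, and capitals mark the matches to CAGAC or GTCT on either strand, letters that SMAD proteins are known to bind.
EFNA1 promoter, chr1:155127626-155127875, plus strand: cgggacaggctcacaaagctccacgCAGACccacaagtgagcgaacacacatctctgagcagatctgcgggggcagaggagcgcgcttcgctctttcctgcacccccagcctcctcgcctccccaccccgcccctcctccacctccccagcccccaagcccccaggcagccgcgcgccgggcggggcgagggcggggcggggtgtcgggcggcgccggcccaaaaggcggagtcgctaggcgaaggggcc
EPHB2 promoter, chr1:22710588-22710837, plus strand: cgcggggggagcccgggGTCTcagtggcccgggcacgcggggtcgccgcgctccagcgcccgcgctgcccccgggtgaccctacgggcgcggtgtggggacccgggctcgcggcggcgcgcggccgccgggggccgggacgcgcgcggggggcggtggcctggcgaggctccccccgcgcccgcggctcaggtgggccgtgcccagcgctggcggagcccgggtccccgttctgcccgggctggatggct
PLXND1 promoter, chr3:129606677-129606926, minus strand: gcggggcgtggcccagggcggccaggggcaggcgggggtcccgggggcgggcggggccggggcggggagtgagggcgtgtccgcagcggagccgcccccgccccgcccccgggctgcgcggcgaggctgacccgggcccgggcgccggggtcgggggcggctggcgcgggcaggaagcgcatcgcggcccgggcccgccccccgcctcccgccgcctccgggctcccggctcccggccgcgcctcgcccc
EFNA1 held 1 CAGAC, whose last 4 letters are also its 1 match to GTCT, on the other strand. EPHB2 held 1 GTCT and PLXND1 none of these letters. Of 35116 promoter windows, 38.0% held CAGAC and 77.5% GTCT, and of the 61 members with a RefSeq promoter, 29.5% and 65.6% did. The STAT6 spacing, TTCNNNNGAA, was in 0.0% of the members' windows and 5.38% of all windows, and the STAT spacing, TTCNNNGAA, in 8.20% and 6.57%. Neither was in the 3 windows shown. These windows are rich in G and C, with 73.2% for EFNA1, 84.8% for EPHB2 and 88.8% for PLXND1, beside a median of 65.6% over the members and 58.0% over all windows.

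Further members differed between TGF-β and IL-4 + IL-13 in 1 direction in all batches without passing the test. In all, 8 members were higher and 4 lower under TGF-β in 6 of 6 pairs, 12 of 72 where 9.9% of all genes were. The higher members were the receptors EPHB2, PLXND1, UNC5B, UNC5D, NRP1, PLXNB3 and PLXNA4 and the cue EFNA1. UNC5B had a log2 difference of 0.51 ± 0.18 (adjusted p = 0.163), and NRP1 one of 0.27 ± 0.16 (adjusted p = 0.556). The lower members were the cues EFNA5, SEMA3B and SEMA3D and the receptor EPHA3, which was named for this pattern after its values had been seen. EFNA5 had -0.44 ± 0.15 (adjusted p = 0.133), SEMA3B -0.41 ± 0.15 and SEMA3D -0.74 ± 0.31. PLXNA1 had 0.15 ± 0.05, SEMA3F -0.16 ± 0.07 and SLIT3 0.31 ± 0.14.

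The number of calls in this direct comparison moved with the libraries kept. Without the vehicle library of batch 2 alone 8 members were called (5.24% of all genes), without that of batch 4 alone 3 (3.57%), without both 9 (6.21%), and without batch 2 as a whole 9 (5.29%). The values that follow leave out both vehicle libraries. EPHB2, PLXND1 and EFNA1 had log2 differences of 0.52, 0.82 and 0.63 (adjusted p = 0.000131, 0.000222 and 0.00116 in edgeR's test). Higher under TGF-β were also PLXNA4 (0.32 ± 0.07, adjusted p = 0.00603), UNC5D (0.38 ± 0.08, 0.00641), UNC5B (0.52 ± 0.14, 0.0373) and NRP1 (0.26 ± 0.07, 0.0405). Lower under TGF-β were EFNA5 (-0.44 ± 0.08, 0.00182) and SEMA3D (-0.74 ± 0.18, 0.0188). Leaving out both was added after the data had been seen.

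Markers of other cell types moved with the same contrast. Of 10 fibroblast and mesenchyme markers 1 was called, COL1A1 (741 to 8912 CPM over all libraries), with a log2 difference of 1.31 ± 0.26 (TGF-β minus IL-4 + IL-13; adjusted p = 0.00633). The summed level of that list was higher under TGF-β in 6 of 6 pairs, by a median log2 ratio of 0.46, and ran from 4731 to 16016 CPM under TGF-β and from 3212 to 6947 CPM under IL-4 + IL-13. The list did not move as 1, since 5 of its 10 genes lay higher under TGF-β and 5 lower, with a median log2 difference of 0.03, and COL1A1 is among its most abundant genes. Of 9 glial markers 1 was called, higher under TGF-β in this contrast and against vehicle, and of 16 neuronal markers 1 was called, lower under TGF-β in this contrast and higher under IL-4 + IL-13 against vehicle. The summed level of the 9 glial markers ran from 126 to 195 CPM under TGF-β and from 93.2 to 153 CPM under IL-4 + IL-13. Within that list SOX10 stood at only 0.0778 to 0.694 CPM and CDH19 was at 0 in 11 libraries, so these genes do not stand for the list. The endothelial receptor KDR differed by -1.29 ± 0.28 (adjusted p = 0.0118), the epithelial cadherin CDH1 by 1.26 ± 0.33 (0.0425) and the melanocyte factor MITF by -0.74 ± 0.12 (0.00114). Their part in the differences of EPHB2, PLXND1 and EFNA1 was not tested. Of 5 genes taken as markers of the TGF-β response, 4 were called in the direct comparison, all higher under TGF-β. For TGF-β against vehicle 0 were called, though 5 of 5 lay higher, with a median log2 fold change of 0.29. After IL-4 + IL-13, 2 were called lower than in vehicle. Of 4 markers of the IL-4 + IL-13 response, 3 were called against vehicle, all higher.

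SEMA3A, NRP1 and EFNB2 stand for a cue, its receptor and an ephrin, and none was called in any contrast with all libraries. SEMA3A had 36.1 to 38.6 CPM (median 37.8) in vehicle, 28.7 to 43.3 CPM (median 34.5) under TGF-β, 28.2 to 44.6 CPM (median 33.9) under IL-4 + IL-13 and 25.6 to 42.6 CPM (median 36.4) under IL-6. The treated medians lay a little below that of vehicle, and the groups overlapped throughout. Its log2 fold changes were -0.10 ± 0.09, -0.14 ± 0.09 and -0.10 ± 0.09, in the same order. NRP1 had 101 to 229.7 CPM (median 159) in vehicle, 94.4 to 278 CPM (median 174) under TGF-β, 91.3 to 232 CPM (median 137) under IL-4 + IL-13 and 76.9 to 192 CPM (median 139) under IL-6, with log2 fold changes of 0.08 ± 0.16, -0.19 ± 0.16 and -0.27 ± 0.16. EFNB2 had 96.6 to 318 CPM (median 153) in vehicle, 93.7 to 276 CPM (median 159) under TGF-β, 93.5 to 256 CPM (median 175) under IL-4 + IL-13 and 143 to 273 CPM (median 185) under IL-6, with log2 fold changes of -0.11 ± 0.23, -0.04 ± 0.22 and 0.12 ± 0.22. In EFNB2 the vehicle library of batch 4 was the highest of its group at 318 CPM, where the treated libraries of batch 4 had 114 to 205 CPM. For NRP1 the vehicle library of batch 2 held 6745 counts and the treated libraries of that batch 2453 to 3326. For SEMA3A these were 1314 and 816 to 1026 counts. The fitted changes include these pairs, though the correlations go against the batch labels of both vehicle libraries. The intervals of SEMA3A held every log2 fold change against vehicle within -0.31 and 0.08, and those of EFNB2 were wider, from -0.58 to 0.37 under TGF-β and -0.35 to 0.59 under IL-6. SEMA3A lies on chromosome 7 (83955777 to 84492724, minus strand), NRP1 on chromosome 10 (33177492 to 33336262, minus strand) and EFNB2 on chromosome 13 (106489745 to 106535662, minus strand).

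**Figure D4:**
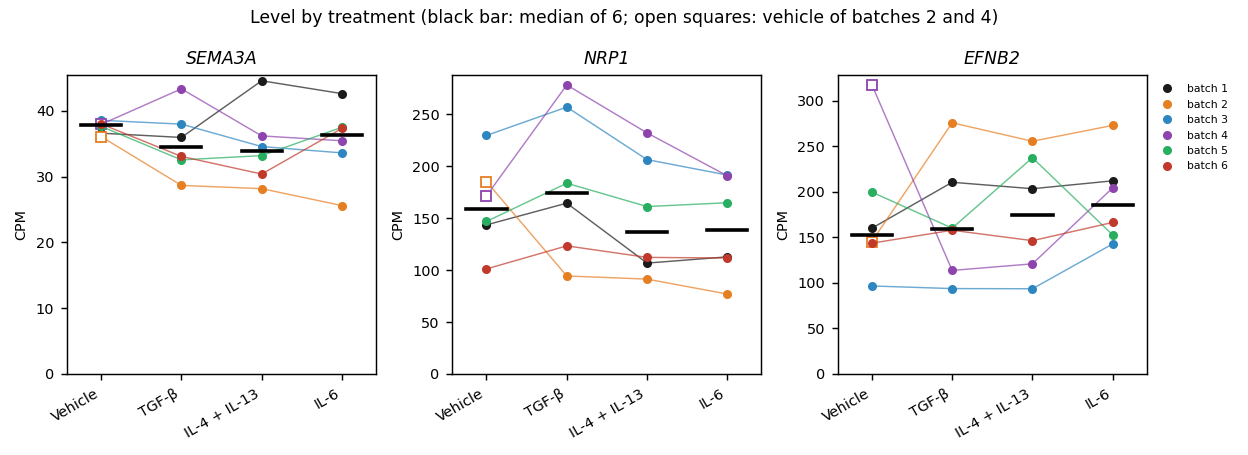
CPM of SEMA3A, NRP1 and EFNB2 in all 24 libraries by treatment, 1 point per library with lines joining the libraries of a batch and a bar at the median of each group (open squares: vehicle libraries of batches 2 and 4). The groups overlap for all 3 genes, and SEMA3A spans 36.1 to 38.6 CPM in vehicle cultures against 25.6 to 44.6 CPM over all libraries.

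Batch accounted for more of the variation of the members than treatment did. Of 72 members, 67 were called by the test over batches (58.2% of all genes, and 77.8% of the genes that edgeR's filterByExpr keeps), and the 5 that were not were scarce: NTN3, EPHA1, ROBO4, SEMA3G and NTN5. In log2 CPM, batch took a median of 74.7% of a member's variance, treatment 3.60% and the residual 19.1%. Over all genes, scarce ones included, the medians were 56.1%, 6.61% and 34.02%, and none is given for genes as abundant as the members. The share of batch was above that of treatment in 72 of 72 members. Batch has more terms in the model than treatment, and noise alone gives each term some share. No allowance was made for that in any of these shares. EPHB2 had the highest share for treatment at 27.7%, then EFNA1 at 22.9%, EPHA1 at 20.1%, UNC5B at 17.2%, SEMA3D at 16.5% and PLXND1 at 15.6%. The mean of the highest batch was a median of 2.33 times that of the lowest, from 1.35 times for SEMA3A to 12.5 times for EPHA3, and over 4 times for 12 members. Without the vehicle libraries of batches 2 and 4 that median was 2.53, with a range of 1.36 to 16.1. The libraries of a batch share 1 differentiation, and these are descriptions of 6 differentiations.

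Batch 1 stood apart for many members. Its 4 libraries lay all above the other 20 for 8 members and all below them for 16, 24 of 72 where 14.7% of all genes did so. That share is over all 27622 genes, scarce ones included. No share over genes as abundant as the members is given here, so the excess is not to be read as particular to them. The 8 were EPHA2, EPHB4, NRP2, PLXNB1, PLXNB2, PLXNC1, SLIT2 and SLIT3, 6 receptors and 2 slits. NRP2 had 351 to 618 CPM in them against 92.9 to 319.9 CPM in the others. EPHA2 had 71.8 to 124 CPM in them against 35.2 to 59.9 CPM in the others, and PLXNB2 417 to 605 CPM in them against 189 to 315 CPM in the others. Below were DCC, EFNA3, EPHA10, EPHA5, EPHA8, EPHB1, EPHB6, NTNG2, PLXNA1, SEMA4C, SEMA5B, SEMA6A, SEMA6D, SLIT1, UNC5A and UNC5C, a group with the netrin receptors DCC, UNC5A and UNC5C and the netrin-G gene NTNG2. NTNG2 had 3.70 to 8.04 CPM in them against 9.69 to 44.8 CPM in the others, and SEMA6D 30.6 to 52.00 CPM in them against 82.1 to 135 CPM in the others. DCC had 16.6 to 47.7 CPM in them against 48.5 to 296 CPM in the others, and SLIT1 22.5 to 83.8 CPM in them against 88.9 to 591 CPM in the others. The summed level of the neuronal markers was lowest in batch 1, at 2078 to 3690 CPM against at least 4506 CPM in every other library, and that of the fibroblast and mesenchyme markers was 6299 to 16016 CPM against 3212 to 9520.4 CPM, which overlap. The summed level of 5 epithelial markers was 581 to 1092 CPM in batch 1 against at most 424 CPM elsewhere, and that of 5 smooth muscle markers 843 to 1834 CPM against at most 945 CPM. Their part in the pattern of batch 1 was not tested. The same 24 members were set apart without the vehicle libraries of batches 2 and 4. DCC, SLIT1 and the other members given here outside the fixed rule were named for this pattern after their values had been seen.

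The 3 treated libraries of batch 2 also stood apart, lying all above the other 21 for 12 members and all below them for 8. These are 20 of 72, where 13.1% of all genes, scarce ones included, did so. This was noticed in the data and is given as a description. ROBO3, a robo of commissural axons, had 254 to 316 CPM in them against 11.9 to 93.4 CPM in the others. DCC had 269 to 296 CPM in them against 16.6 to 109.6 CPM in the others, EPHA3 414 to 479.8 CPM in them against 11.3 to 172 CPM in the others and SLIT1 496 to 591 CPM in them against 22.5 to 369 CPM in the others. SEMA5B had 43.2 to 47.8 CPM in them against 2.98 to 22.8 CPM in the others. Both neuropilins and the cues SEMA3A and SEMA3C lay below the other libraries. NRP2 had 92.9 to 110.0 CPM in them against 171 to 618 CPM in the others, NRP1 76.9 to 94.4 CPM in them against 101 to 278 CPM in the others and SEMA3C 191 to 243 CPM in them against 267 to 572 CPM in the others. The other 21 libraries include the vehicle libraries labelled batch 2 and batch 4. That labelled batch 4 was the highest of the others for EPHA3, SLIT1, DCC and SEMA5B, though not for ROBO3. Its mean correlation with these 3 treated libraries was 0.519 over well-expressed genes. The summed level of 4 cell cycle genes was 326 to 447 CPM in these 3 libraries. It was 58.8 CPM in the vehicle library of batch 2, 126 CPM in that of batch 4 and at most 135 CPM elsewhere. The part of these genes was not tested.

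**Figure D5:**
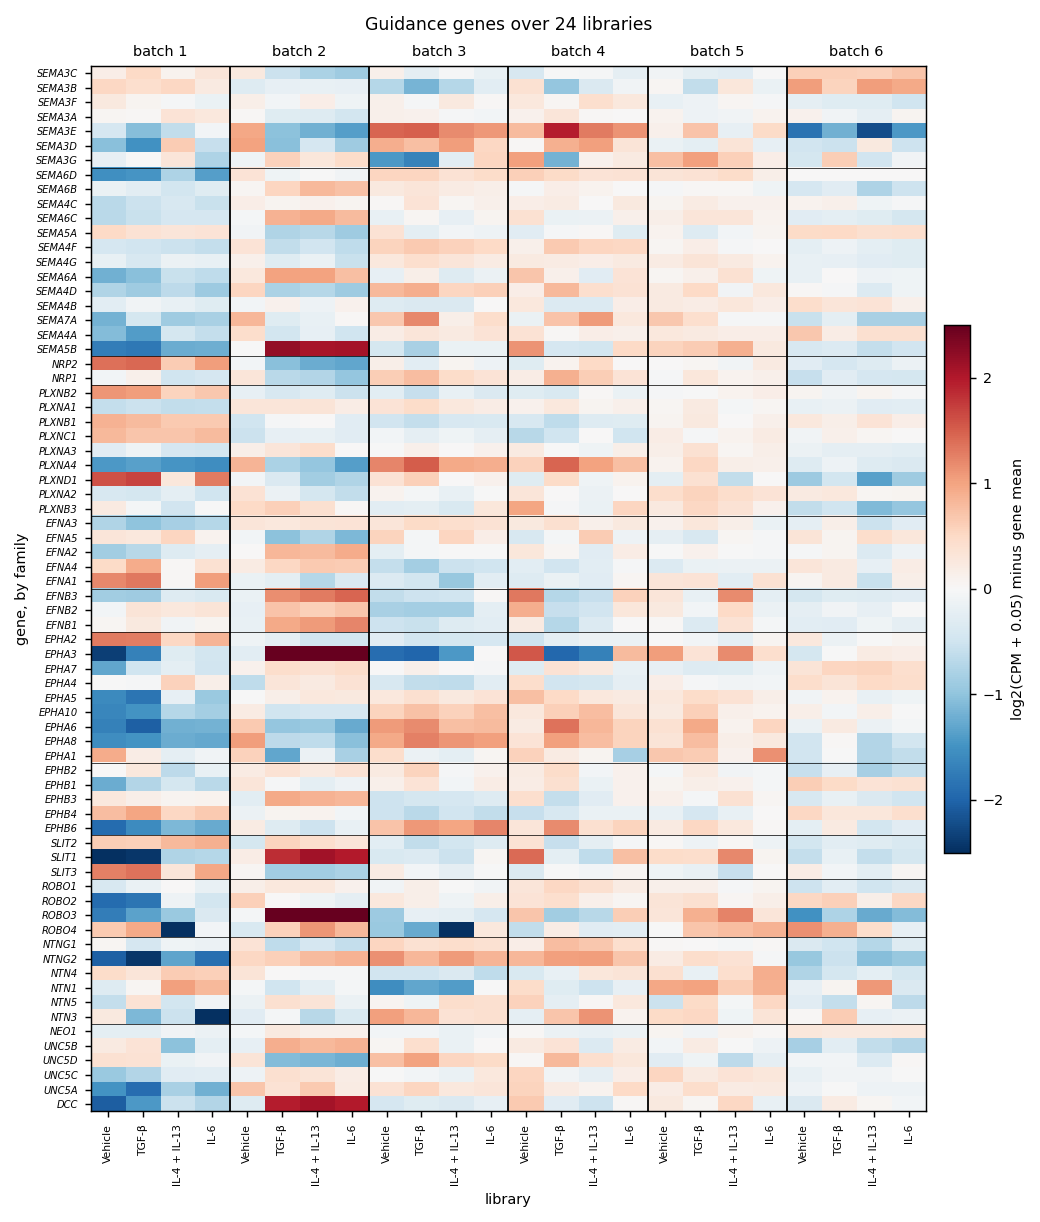
Heat map of the 72 members (rows, by family) in the 24 libraries (columns, by batch and treatment), as log2(CPM + 0.05) minus the mean of each gene, with colours capped at ±2.5. Columns of batch 1 and the treated columns of batch 2 differ from the rest over blocks of members, 24 and 20 of 72, and the vehicle column of batch 2 does not follow the treated columns beside it. In EPHA3, SLIT1, DCC and SEMA5B the vehicle column of batch 4 is the highest after those treated columns.

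Genes that act beside the members were examined in 2 further lists. Of 44 genes that carry guidance signals to the cytoskeleton, such as collapsin response mediators and actin regulators, 0 were called against vehicle in any of the 3 contrasts and 1 in the direct comparison. That gene was ENAH, an actin regulator, at 0.26 ± 0.06 (log2 difference, TGF-β minus IL-4 + IL-13; adjusted p = 0.0320). Of 28 other cues, co-receptors and adhesion molecules, 1 was called after IL-4 + IL-13, FLRT3, a ligand of UNC5 receptors, which rose by 0.56 ± 0.10 (adjusted p = 0.00962), and 4 in the direct comparison. PTK7 and WNT5A, both of WNT signalling, were higher under TGF-β by 0.63 ± 0.12 and 0.41 ± 0.09 (adjusted p = 0.00312 and 0.00930 in edgeR's test). FLRT3 and NELL2, a ligand of ROBO3, were lower under TGF-β, at -0.87 ± 0.10 and -0.35 ± 0.09 (adjusted p = 4.84e-05 and 0.0388). Batch was called for 41 of 44 and 28 of 28 of these genes.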

How the data were processed

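PolyA RNA of whole cultures was sequenced on an Illumina NovaSeq, per the labels. The authors deposited raw counts of reads per gene for 24 libraries, without normalization and without pooling, and the submitters' processing notes name Trimmomatic 0.30 and the build GRCh38.p14. Which aligner and which counter made them, and whether counting used strand, is not given in the sources used here. Treatments and batches were taken from the labels, and treatments were compared within batch, as in the study's own model. A batch is 1 differentiation of 1 cell line. The batch term takes up differences in level between differentiations. The p-values for treatment thus weigh a change against how it varies from batch to batch, in that line only.

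The first row of each of 33230 symbols was used (36468 rows in all), and those under 10 counts over the 24 libraries were dropped, which left 27622. EPHA1, EPHB6 and SEMA7A have a further row each that was not used, and no row lacked a gene name. The unused rows held 258, 14172 and 5941 counts, beside 339, 13348 and 10578 in the rows used. Levels and ranks of these members are those of the row used. Counts were fitted in R 4.3.3 with edgeR 4.0.16 (TMM factors, robust quasi-likelihood F test, batch and treatment as terms, all libraries in 1 fit), with Benjamini-Hochberg adjustment over all genes tested. The threshold for a call was an adjusted p of 0.05, and a stricter call also asked for a fitted log2 change above 1 or below -1. The SE is the size of the log2 change over the root of F. Levels are CPM with TMM factors, and CPM per kb divides by the exon length of GENCODE release 44, found for all 72 members. DESeq2 1.42.0 was an alternative. Other alternatives were RLE and upper-quartile factors, 2 other filters on low counts, no batch term, only the groups compared, each batch left out, and summed rows. Omission of the vehicle libraries of batches 2 and 4, singly or together, was partly added after the data had been seen. The test was checked on simulated counts. Batch is a label shared by 1 library of each treatment. With treatment means removed, a library's mean correlation with the others of its batch had a median of 0.670 over well-expressed genes, and correlations of single pairs ran from -0.118 to 0.948.

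Named members were those called, the 10 of lowest p per treatment contrast with a mean count of at least 10, SEMA3A, NRP1 and EFNB2, the highest vehicle level of each family, and the 10 of lowest p over batches. The members and gene lists were chosen with earlier results of these data known. Values of some marker genes are not reported here; the summed levels include them.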

Additional observations from a re-analysis of the deposited data

Results flagged for a closer look

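In each of 160 groups of 6 libraries (40 named members in 4 treatments), the gap between the extreme library and its neighbour was compared with the range of the group by Dixon's criterion at the 95% level. Chance marks about 1 in 20 such groups, and 25 were marked here, 18 of them by batch 1. Of the 40 members 10 had been named for the lowest p over batches, and they gave 10 of these 18 groups, so the number is not to be read against chance. Batch 1 was the highest library for PLXND1 in vehicle (208 CPM), TGF-β (223 CPM) and IL-6 cultures (170.1 CPM). It was also highest for SLIT3 in vehicle (247 CPM), TGF-β (264 CPM) and IL-6 (201 CPM), and for EPHA2 in the same groups (124, 121 and 90.3 CPM). PLXNB2 reached 605 CPM in vehicle, 584 CPM in TGF-β and 417 CPM in IL-4 + IL-13 cultures of batch 1, NRP2 594 CPM in vehicle and 618 CPM in TGF-β, and PLXNC1 177 CPM in IL-4 + IL-13. EFNA1 stood at 21.5 CPM in vehicle and 23.3 CPM in TGF-β, while EFNA3 was lowest in batch 1 under TGF-β, at 10.5 CPM.

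Batch 2 gave the highest libraries of EFNA2 under IL-4 + IL-13 (21.7 CPM) and IL-6 (23.8 CPM), and of EFNB3 under TGF-β (381 CPM) and IL-6 (464 CPM). The highest vehicle library of EFNB3, at 427 CPM, was that labelled batch 4, 1 of the pair whose batch labels the correlations go against. EPHA1 reached 0.879 CPM under IL-6 in batch 5, and SEMA3B 144 CPM under IL-6 in batch 6. No explanation was tested for any of these libraries.

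For 3 members the change with TGF-β differed from that with IL-4 + IL-13 in edgeR's test of the difference itself, with log2 differences of 0.82 for PLXND1, 0.62 for EFNA1 and 0.52 for EPHB2, each higher under TGF-β in 6 of 6 batches.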

How the results depend on the processing

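Of 680 single values of named members over all the alternatives, 651 kept their side of the threshold, 19 gained a call and 10 lost one, and none changed direction while called. Batch enters as the replicate block. Without it, 0 members were called over the 4 groups, 0 for IL-4 + IL-13 against vehicle and 0 for TGF-β against IL-4 + IL-13, since the spread between batches then counts as error. Leaving out 1 batch at a time gave 0 to 4 members over the 4 groups, 0 to 0 for TGF-β, 0 to 3 for IL-4 + IL-13, 0 to 0 for IL-6, 2 to 9 for TGF-β against IL-4 + IL-13 and 62 to 67 for batch. Without the vehicle library of batch 2 there were 5 members over the 4 groups and 8 in the direct comparison. Without the vehicle library of batch 4 there were 3 for IL-4 + IL-13. Without both there were 8 over the 4 groups and 9 in the direct comparison. DESeq2 called 1 member for TGF-β and 3 for IL-4 + IL-13. For DESeq2 and most of the fits with a batch left out, the share of all genes called is not given here. Those counts are therefore not to be read against all genes. A fit of only the groups compared called 0 for IL-4 + IL-13, and the stricter call gave 0 there and 0 in the direct comparison. The cause of these changes was not tested. IL-6 stayed at 0 members in all 18 alternatives and batch between 62 and 68. A fit of only the groups compared, and the stricter call, have no value for the tests over 4 groups and over batches. At these totals the median SE of a member's log2 fold change was 0.14, so smaller differences than those called were not detectable for many members.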
